A study of Mus musculus with 8 samples.

Results

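The Hox genes of the mouse were taken as every gene whose symbol, matched from the RefSeq accession of a deposited entry, reads Hoxa, Hoxb, Hoxc or Hoxd followed by a number. This gave 39 genes out of 23500, with 11 in the HoxA cluster on chromosome 6, 10 in HoxB on chromosome 11, 9 in HoxC on chromosome 15 and 9 in HoxD on chromosome 2. Every one of them was kept, whether or not it was expressed. The cells were bone marrow-derived mesenchymal stem cells of the mouse, stromal progenitors that can form bone, cartilage and fat. All groups shared a p53 knockout and were kept at less than 20 passages. They came as 4 single clones, numbered 2, 4, 8 and 12. Each clone had received a retrovirus expressing luciferase (Luc), which served as the control, or a retrovirus expressing cFos cDNA, which encodes a subunit of the AP-1 transcription factor. There was 1 library per clone and virus, 4 Luc and 4 cFos in all, and a library is named by its virus and clone, as in Luc 8. A clone is a line grown from a single cell, and the animal, the bone of origin and the promoter of the retrovirus are not in the labels.

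Hox genes encode homeodomain transcription factors and lie in clusters in which the gene order follows the order of their domains along the body axis. Low numbers sit at the 3′ end and act toward the head, high numbers sit at the 5′ end and act toward the tail and in the limbs, where numbers 9 to 13 pattern the segments from shoulder or hip to the digits. Genes that share a number in different clusters are paralogs. Cells of connective tissue keep a Hox expression pattern in culture that reflects where in the body they came from, and the clusters are held silent or active by Polycomb and Trithorax chromatin proteins.

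Sequence aligned to transcripts came to 6.93 to 9.14 gigabases per library, and FPKM (fragments scaled to transcript length and library size) are the values given throughout. Fos was at 41.1 to 302 FPKM in Luc and 505 to 1019 in cFos. Trp53, which encodes p53, was listed at 6.17 to 9.28, and the labels do not say which part of it is deleted. All 15 stromal markers looked at reached 1 FPKM in at least 1 library, with summed levels of 5052 to 10493 in Luc and 3693 to 5480 in cFos. Lepr did so only in Luc 12 (1.39), and Thy1 (0.0916 to 23.8) and Nt5e (0.167 to 7.94) were below 1 FPKM in most libraries. Cxcl12, Col1a1 and Col1a2 made up most of the sums. Cxcl12 was at 1168 to 7270 in Luc and 174 to 645 in cFos, while Pdgfrb was higher in cFos in each clone. Of 11 blood markers 3 reached 1 FPKM, Cd34 (up to 11.7, in Luc 12), Kit (up to 4.71, in Luc 2) and Cd14 (0.902 to 2.69). The defining Ptprc, Itgam, Cd3e, Spi1 and Adgre1 stayed below 0.1 FPKM and Gata1 at 0. None of 6 endothelial markers reached 1 FPKM, with Cdh5 at 0 and Tek the highest at 0.328. The summed blood markers ran from 3.5 to 13.7 in Luc and from 3.04 to 3.56 in cFos, and their part in the Hox results was not tested. Luc 2 stood apart from the other libraries in its Hox profile. Over the 20 HoxA and HoxC genes its highest correlation of log2 values with any library was 0.703, while each of the other 7 had a partner at 0.950 or above. Correlations of this kind are across genes and serve as a description.

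The levels split the clusters into an expressed pair and a silent pair. HoxA members summed to 58.6 ± 28.7 FPKM in Luc and 35.9 ± 7.01 in cFos (SD, n = 4 clones), and HoxC members to 58.2 ± 21.5 and 50.8 ± 9.602. HoxB summed to 0.0755 ± 0.0181 and 0.0708 ± 0.0463, and HoxD to 0.0671 ± 0.115 and 0.138 ± 0.225. No HoxB or HoxD gene reached 1 FPKM in any library. Of the 152 values of these 19 genes, 103 were listed at 0, and 6 of the genes (Hoxb3, Hoxb5, Hoxb8, Hoxb13, Hoxd1 and Hoxd3) were at 0 in all 8 libraries. The highest was Hoxd8 at 0.232 FPKM in cFos 12, from about 2528 aligned bases. Of all 23500 genes, 42.4% stayed under 0.3 FPKM in every library. No housekeeping gene checked was at 0 in any library, which says nothing about the detection of genes at low level. In the HoxA and HoxC clusters 19 of 20 genes reached 1 FPKM at least once, the exception being Hoxa13, a gene of digit formation, which peaked at 0.130 in Luc 2.

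**Figure D1:**
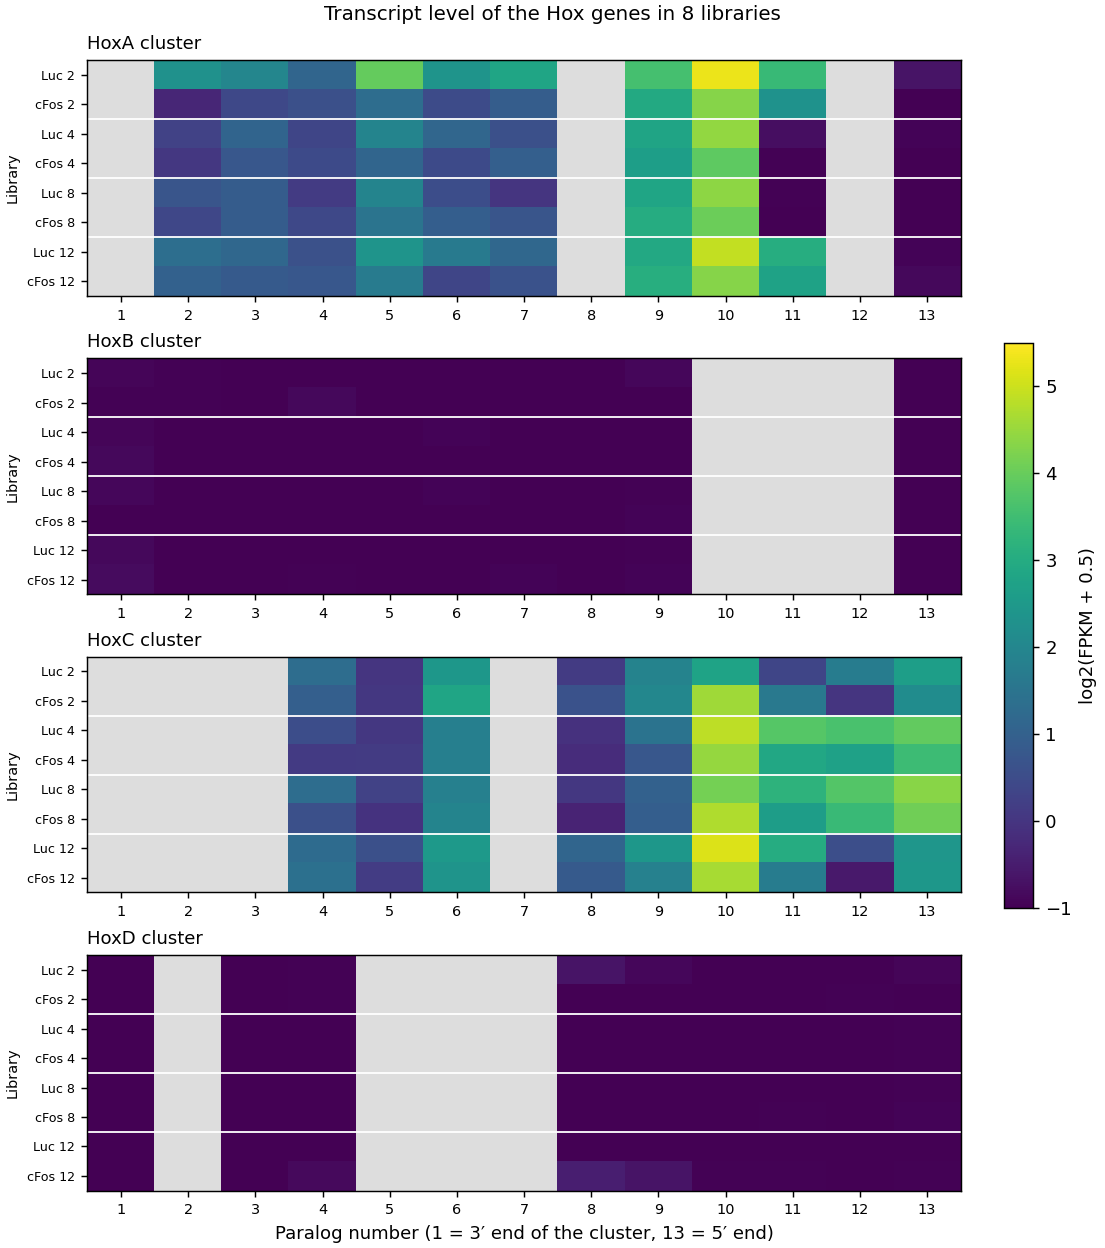
Level of the Hox genes as log2(FPKM + 0.5), colour, by paralog number (horizontal) and library (vertical, each clone's Luc above its cFos), in 4 panels for the clusters; grey marks numbers for which no gene is shown. HoxA is lit up to number 11 in clones 2 and 12 and up to number 10 in clones 4 and 8, and HoxC up to number 13. The highest value is at number 10, except for HoxC in Luc 8, where it is at number 13. HoxB and HoxD stay at the floor of the scale in all 8 libraries.

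Within the expressed clusters the level was highest at number 10 and lower toward the 3′ end. Hoxa10, a regulator of the lumbar skeleton and the uterus, was the top HoxA gene in all 8 libraries, at 39.3, 21.4, 20.5 and 29.3 FPKM in Luc 2, 4, 8 and 12 and 19.3, 14.2, 15.9 and 19.3 in cFos. Hoxc10, which acts at lumbar and hindlimb levels, was the top HoxC gene in 7 of them, the exception being Luc 8, where Hoxc13 led with 19.9. These means lie at percentiles 69.9 and 70.3 of all tested genes, so the highest Hox genes were of middling abundance. Numbers 9 to 11 held between 61.6% (Luc 2) and 80.2% (cFos 2) of the HoxA total, and numbers 10 to 13 between 58.3% (Luc 2) and 90.5% (Luc 4) of the HoxC total. All Hox genes together made up 0.0170% to 0.0273% of the FPKM of a library.

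The 3′ members were low. Hoxa3, a gene of the hindbrain and pharyngeal arches, ranged from 0.8291 to 3.48 FPKM. Hoxa2, which sets the identity of a pharyngeal arch, ranged from 0.305 to 4.4, and Hoxa4 from 0.594 to 1.69. Hoxa5, which shapes the upper thoracic skeleton and the lung, was the highest of the HoxA genes on the 3′ side of Hoxa9, at 1.69 to 15.0. Hoxa6 ranged from 0.788 to 4.69 and Hoxa7 from 0.510 to 6.58, and each peaked in Luc 2. In HoxC the thoracic genes Hoxc6 and Hoxc9 were at 2.97 to 6.56 and 1.21 to 4.89, and Hoxc4 at 0.568 to 2.15. Hoxc5 and Hoxc8 stayed low, at 0.468 to 1.002 and 0.278 to 1.66, and reached 1 FPKM in 1 and 3 libraries. The entry of Hoxa3 spans those of Hoxa4, Hoxa5 and Hoxa6, so the split of reads among them is uncertain.

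Hoxa10 and Hoxa9, a regulator of blood cell growth and of the posterior trunk, each have 2 deposited transcripts. For Hoxa10 the transcript with the outer start (NM_001122950, chromosome 6, 52181195 to 52190853 in mm9, the span of the gene) held 79.5% to 91.0% of the gene's FPKM in every library, and the one with the inner start (NM_008263) the rest. For Hoxa9 neither dominated, and NM_001277238 held 24.9% (Luc 12) to 64.8% (Luc 2). These shares come from Cufflinks' model and not from reads counted at the starts. The 250 bases before 5 annotated starts in the HoxA cluster are shown because the results turn on these genes. They are the 2 starts of Hoxa10 and those of the clone-dependent Hoxa11, its silent neighbour Hoxa13, and Hoxa5. Of the tested Hox genes, Hoxa5 had the most negative mean log2 difference between cFos and Luc. The windows are those of RefSeq in build GRCm38.p6 on the minus strand, 5′ to 3′, with each CG dinucleotide in capitals.
Hoxa10 outer start, chr6:52240855-52241104: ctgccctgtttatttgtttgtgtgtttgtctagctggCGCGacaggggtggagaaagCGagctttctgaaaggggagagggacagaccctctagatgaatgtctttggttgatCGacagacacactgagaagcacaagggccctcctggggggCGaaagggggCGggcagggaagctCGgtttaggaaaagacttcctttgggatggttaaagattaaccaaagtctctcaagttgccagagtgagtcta
Hoxa10 inner start, chr6:52234940-52235189: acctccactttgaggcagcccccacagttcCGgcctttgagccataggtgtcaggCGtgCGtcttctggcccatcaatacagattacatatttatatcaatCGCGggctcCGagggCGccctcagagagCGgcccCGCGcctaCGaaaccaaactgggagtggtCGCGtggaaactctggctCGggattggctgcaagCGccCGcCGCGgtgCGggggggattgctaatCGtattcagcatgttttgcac
Hoxa11, chr6:52245811-52246060: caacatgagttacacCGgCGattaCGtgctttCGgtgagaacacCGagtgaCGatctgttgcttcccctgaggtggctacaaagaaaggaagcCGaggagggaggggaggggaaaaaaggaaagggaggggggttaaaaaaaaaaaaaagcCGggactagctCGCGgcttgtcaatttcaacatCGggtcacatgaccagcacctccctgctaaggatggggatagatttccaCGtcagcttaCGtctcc
Hoxa13, chr6:52260881-52261130: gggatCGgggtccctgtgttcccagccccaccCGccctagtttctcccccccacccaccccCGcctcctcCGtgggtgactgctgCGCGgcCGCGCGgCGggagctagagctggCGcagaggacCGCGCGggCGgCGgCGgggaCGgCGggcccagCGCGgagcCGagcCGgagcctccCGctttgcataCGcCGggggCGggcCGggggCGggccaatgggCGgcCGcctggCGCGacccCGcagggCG
Hoxa5, chr6:52204588-52204837: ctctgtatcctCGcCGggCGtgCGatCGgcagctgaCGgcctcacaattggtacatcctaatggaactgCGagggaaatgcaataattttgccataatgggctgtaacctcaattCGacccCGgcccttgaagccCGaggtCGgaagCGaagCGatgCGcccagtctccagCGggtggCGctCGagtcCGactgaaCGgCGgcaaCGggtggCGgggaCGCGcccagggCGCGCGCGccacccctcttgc

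The window at the outer Hoxa10 start, whose transcript was the more abundant, has 7 CG dinucleotides, against 20 at the inner one. Hoxa11 has 13, Hoxa5 has 28 and Hoxa13, the gene with almost no transcript, has 35. Few CG also occur at low levels, as in Hoxa7 (7 CG, 0.510 to 6.58 FPKM) and Hoxd4 (3 CG, at most 0.0612 FPKM). A link between CG number and level was not tested. RefSeq windows matched 22 of the 39 genes, 24 windows in all. Their median was 15.5 CG in the 10 HoxA windows and 12.5 in the 10 HoxD windows, against 6 in all 32851 windows. The AP-1 motif TGANTCA, which reads the same on both strands, is in 1 of the 24 (Hoxd11) and in 6.75% of all windows of this length. A motif match is a description of the letters, and its absence from these windows says nothing about AP-1 elsewhere.

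Which Hox genes differ among the clones was asked with an F test in limma on the terms for clone, fitted beside one for the virus, so that the 2 libraries of a clone serve as its replicates. It covered 11162 genes that reached 1 FPKM in 4 or more libraries, among them 17 Hox genes, 10 of HoxA and 7 of HoxC. Hoxa13, Hoxc5, Hoxc8 and all HoxB and HoxD genes fell below this level. Hoxa11, Hoxc12 and Hoxc13 passed at an adjusted p under 0.05, out of 54 genes in all, 0.484% of those tested.

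Hoxa11, which patterns the forearm and lower leg (chromosome 6, 52192103 to 52195809, mm9), was at 9.96 and 4.45 FPKM in Luc 2 and cFos 2 and at 7.72 and 6.22 in Luc 12 and cFos 12. It was at 0.0900 and 0.0113 in Luc 4 and cFos 4, and at 0.0122 and 0 in Luc 8 and cFos 8. Clones 2 and 12 expressed the gene and clones 4 and 8 hardly did, with no overlap between their libraries and whichever virus was present. The deposited confidence limits leave the same gap, with a lower limit of 3.98 in cFos 2 and an upper limit of 0.161 in Luc 4. The F statistic was 94.7 (limma adjusted p = 0.0314), rank 3 of all genes, and the clone took 97.8% of the gene's sum of squares. Hoxa11 entered the test only through the 4 libraries of clones 2 and 12.

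Hoxc12 (chromosome 15, 102767283 to 102768948), a posterior HoxC gene, had the opposite pattern. It was at 12.0 and 6.11 FPKM in Luc 4 and cFos 4 and at 13.1 and 10.01 in Luc 8 and cFos 8. It was at 2.83 and 0.506 in Luc 2 and cFos 2, and at 0.968 and 0.175 in Luc 12 and cFos 12. Every library of clones 4 and 8 lay above every library of clones 2 and 12 (F = 56.5, limma adjusted p = 0.0371). Hoxc12 reached 1 FPKM in 5 libraries, those of clones 4 and 8 and Luc 2. Hoxc13, a gene of hair and nail formation (chromosome 15, 102751561 to 102759245), was at 14.7, 10.4, 19.9 and 16.5 in Luc 4, cFos 4, Luc 8 and cFos 8. In Luc 2, cFos 2, Luc 12 and cFos 12 it was at 5.77, 3.95, 4.81 and 4.98. The same clones were high, again without overlap (F = 43.2, limma adjusted p = 0.0375).

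Hoxc11, the next gene toward the 3′ side, did not pass (limma adjusted p = 0.242). It was at 13.4 and 6.91 FPKM for clone 4, 8.78 and 5.64 in clone 8, 7.61 and 2.804 in clone 12 and 0.773 and 2.61 in clone 2, Luc before cFos. Luc 12 exceeded cFos 4 and cFos 8, so the clones overlapped. Hoxc10 showed no such order, since Luc 12 had the highest value (35.4) and Luc 2 the lowest (6.31), and its adjusted p was 0.491. Hoxc6, Hoxc9 and Hoxc4 had large clone shares of the sum of squares (91.7%, 83.0% and 72.0%) and adjusted p of 0.213, 0.193 and 0.301. The median clone share was 83.0% over the 7 tested HoxC genes, 41.3% over the 10 HoxA genes and 46.7% over all tested genes. The HoxA median was thus below that of all genes. A gene with no clone effect also gets a sizeable share, because each clone has few libraries.

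The noncoding transcripts beside these genes were compared too. Hoxa11os, the antisense partner of Hoxa11, was at 5.28, 2.32, 4.39 and 3.26 FPKM in Luc 2, cFos 2, Luc 12 and cFos 12, at 0.0715 in Luc 4, and at 0 in cFos 4, Luc 8 and cFos 8 (limma F test, adjusted p = 0.0371). Like Hoxa11, it entered the test only through the 4 libraries of clones 2 and 12. Its entry overlaps that of Hoxa11 and no use of strand is recorded, so reads in the shared part cannot be told apart. Hotair, a long noncoding RNA between Hoxc11 and Hoxc12 (chromosome 15, 102774492 to 102778377), overlaps no Hox entry. It was at 2.49, 1.35, 3.80 and 1.93 in Luc 4, cFos 4, Luc 8 and cFos 8 and at 0.0919, 0.496, 0.851 and 0.648 in Luc 2, cFos 2, Luc 12 and cFos 12. Clones 4 and 8 were the higher ones, as for Hoxc12 and Hoxc13, but Hotair did not pass (adjusted p = 0.176). Hotair entered the test only through the 4 libraries of clones 4 and 8. Mira, next to Hoxa7, was at 5.73 in Luc 2 and at 0.378 to 1.31 in the others. The miRNA hairpins of the clusters were listed at 0 in all 8 libraries. Libraries of polyA RNA are not made to capture such short RNA, so these values cannot show whether the miRNAs were expressed.

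**Figure D2:**
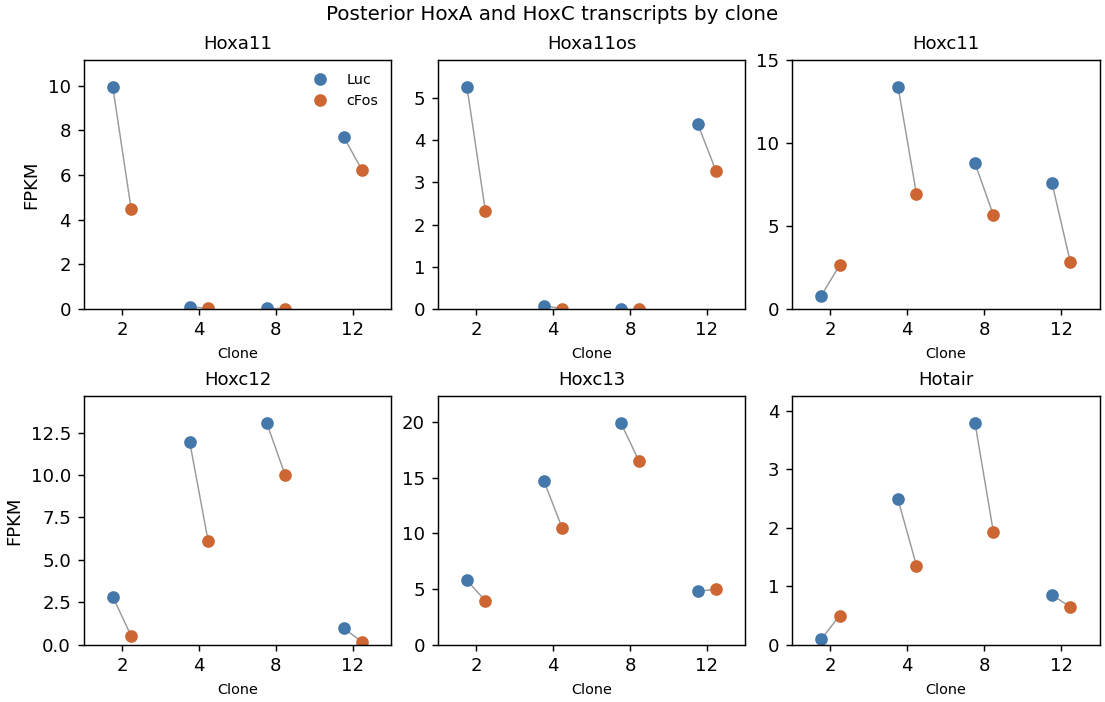
FPKM (vertical, linear from 0) of 4 posterior Hox genes, Hoxa11os and Hotair by clone (horizontal), Luc in blue and cFos in orange, with a line joining the libraries of a clone. Hoxa11 and Hoxa11os are high in clones 2 and 12, where Hoxa11 is at 4.45 to 9.96, and Hoxc12, Hoxc13 and Hotair are high in clones 4 and 8.

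Correlations over the 20 HoxA and HoxC genes, which include those that differ among the clones, were compared as a description. The correlation was 0.955 to 0.987 among the 4 libraries of clones 4 and 8. Luc 12, cFos 12 and cFos 2 correlated with each other at 0.945 to 0.961. Pairs across these 2 sets had 0.573 to 0.710. Luc 2 belonged with neither set, at 0.672 with cFos 2, 0.703 with Luc 12, 0.685 with cFos 12 and 0.443 to 0.502 with the libraries of clones 4 and 8. Over all 11162 genes the libraries of a clone correlated at 0.885 to 0.943 and those of an arm at 0.903 to 0.971. The split was read from the values and is no group of the study, so it carries no test beyond the F test of the clones.

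The clone calls were near the threshold. Leaving out Luc 4, Luc 12, cFos 4 or cFos 12 ended all 3, with adjusted p up to 0.138 for Hoxa11, 0.155 for Hoxc12 and 0.155 for Hoxc13. Hoxc13 also lost its call without Luc 2, cFos 2, Luc 8 or cFos 8 (0.0552 to 0.0908), and with no filter on low genes the values were 0.102, 0.152 and 0.146 and no gene at all was called.

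Whether cFos changed Hox expression was tested with limma on log2(FPKM + 0.5) over the same genes, without a clone term. None of the 17 Hox genes passed, against 5.55% of all genes tested (2.62% lower and 2.92% higher). At an unadjusted p under 0.05, 3 of the 17 did (Hoxa5, Hoxa6 and Hoxa10), against 20.1% of all genes. With the clone as a block, 2 of the 17 passed, Hoxa10 and Hoxc12, both lower in cFos, against 8.79% of all genes (4.28% lower and 4.51% higher), and 3 had an unadjusted p under 0.05, against 26.0% of all genes. The cFos mean was lower for 15 of the 17, as for 58.3% of all genes, and 5 were listed lower in all 4 clones, as were 20.9% of all, Hoxa11 being 1 of the 5 through values near 0 in clones 4 and 8. The median difference was -0.48 (log2) over the 10 HoxA genes, -0.31 over the 7 HoxC genes and -0.06 over all genes. In bulk RNA, fewer expressing cells and less RNA per cell cannot be told apart.

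Hoxa10 had the smallest adjusted p. Its 4 cFos libraries (14.2 to 19.3 FPKM) lay below its 4 Luc libraries (20.5 to 39.3), means of 17.2 ± 2.54 and 27.6 ± 8.73 (SD, n = 4). The Luc level was 2.04, 1.504, 1.29 and 1.51 times the cFos level in clones 2, 4, 8 and 12. The log2 difference was -0.63 (SE 0.22, limma adjusted p = 0.141, and 0.0403 with the clone as a block). Hoxa5 was the other gene whose groups did not overlap, 7.80% of all genes being apart and lower in cFos in this way. No Hox gene was apart and higher in cFos, against 5.86% of all genes. It was at 15.0, 3.33, 3.298 and 4.69 in Luc 2, 4, 8 and 12 and at 2.003, 1.69, 2.35 and 2.75 in cFos, a log2 difference of -1.13 (SE 0.42, limma adjusted p = 0.175, and 0.116 with the block). Most of that mean came from clone 2, where the level was 7.50 times as high in Luc, against 1.97, 1.40 and 1.71 times in clones 4, 8 and 12. Without Luc 2 the log2 difference of Hoxa5 was -0.66. For both genes the exact two-sided permutation p was 0.0286 over libraries and 0.125 within clones, the smallest that 4 against 4 and 4 pairs can give, unadjusted. Any gene with groups apart and the same sign in all 4 clones gets these values, so they add nothing to that description. Hoxa2, Hoxa11 and Hoxc12 had the same permutation p of 0.125 within clones.

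Hoxc12 was lower in cFos in every clone, with a Luc level 5.59, 1.96, 1.31 and 5.52 times the cFos level in clones 2, 4, 8 and 12. The value of cFos 12 rests on about 835 aligned bases, with deposited limits of 0 to 0.351 FPKM, so the ratio of clone 12 is imprecise. The spread between clones exceeded this difference, so the groups overlapped (7.20 ± 6.19 and 4.20 ± 4.74 FPKM, log2 difference -1.03, SE 1.02, limma adjusted p = 0.629). With the clone as a block the SE was 0.23 and the adjusted p 0.0444. Hoxa11 was lower in cFos in clones 2 and 12 (2.24 and 1.24 times). In clones 4 and 8 it was near 0 in both arms, with deposited limits that reach 0 in Luc 8 and cFos 4, so no direction can be read there. With a log2 difference of -0.40 it did not pass in either model (limma adjusted p = 0.897, and 0.315 with the block). Hoxa2 was lower in all 4 clones too, 4.4 and 0.305 FPKM in Luc 2 and cFos 2 and a Luc level 1.33 to 1.42 times the cFos level in the others (limma adjusted p = 0.328).

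**Figure D3:**
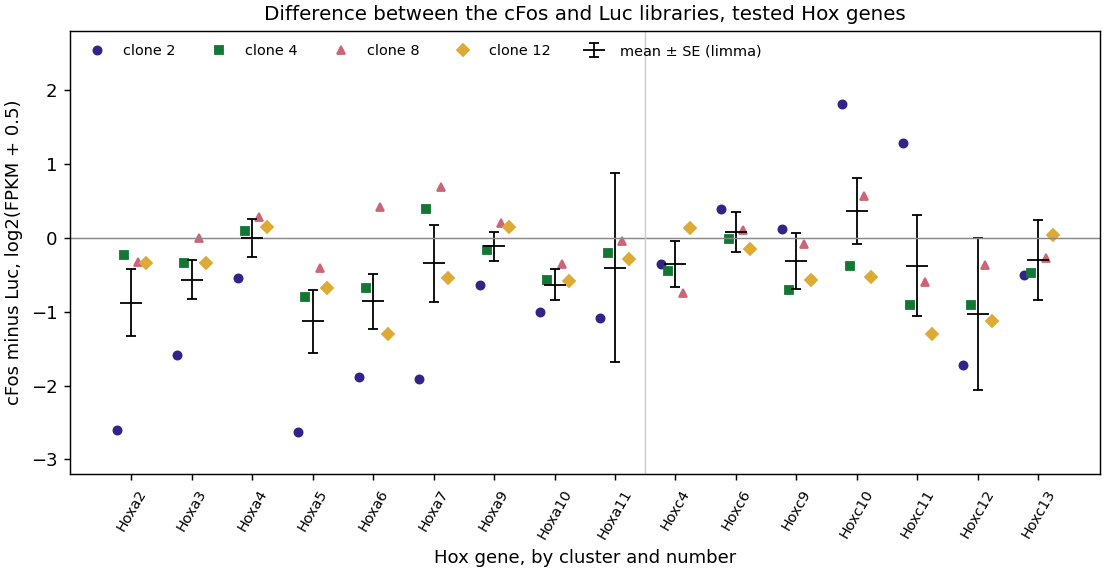
Difference between cFos and Luc in log2(FPKM + 0.5), vertical, for tested Hox genes in cluster order; coloured points are the 4 clones and black bars the mean with its limma SE. Hoxa5 and Hoxa10 are below 0 in all 4 clones. Clone 2 has the most negative value for Hoxa2 to Hoxa11, Hoxc12 and Hoxc13, and the most positive for Hoxc6 and Hoxc9 to Hoxc11.

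The HoxA differences were widest in clone 2. All 10 tested HoxA genes were lower in cFos 2 than in Luc 2, with a median log2 difference of -1.33. The corresponding counts were 8, 5 and 7 of 10 in clones 4, 8 and 12, with medians of -0.22, -0.02 and -0.34. Of all 11162 tested genes, 6104, 6934, 5798 and 5778 were lower in cFos in clones 2, 4, 8 and 12. Their medians were -0.06, -0.09, -0.02 and -0.02, so the HoxA median of clone 8 was that of all genes. The HoxA total was 60.8% lower in cFos than in Luc in clone 2, and 27.4%, 11.6% and 26.4% lower in clones 4, 8 and 12. Without Luc 2 the Luc mean of the HoxA total was 45.2 ± 12.8 FPKM (SD, n = 3), against 35.9 ± 7.01 for cFos.

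The HoxC total of clone 2 was the higher one in cFos. It was 26.9 FPKM in Luc 2 and 43.7 in cFos 2, and it was lower in cFos in clones 4 (75.6 and 50.8), 8 (66.9 and 64.3) and 12 (63.4 and 44.3). Hoxc10 was 3.72 times and Hoxc11 3.38 times as high in cFos 2 as in Luc 2, each a single pair of libraries with no test. Hoxc10 was similar in the 4 cFos libraries, at 23.5, 21.6, 25.7 and 24.5 in clones 2, 4, 8 and 12 (23.8 ± 1.76), and spread from 6.31 to 35.4 in Luc (21.8 ± 12.7). Hoxc13 had a log2 difference of -0.30 (SE 0.54, limma adjusted p = 0.808). Hoxc4, Hoxc6 and Hoxc9 had log2 differences of -0.35, 0.08 and -0.31, and Hoxa4 and Hoxa9 of -0.0019 and -0.11, each with an adjusted p of at least 0.591.

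**Figure D4:**
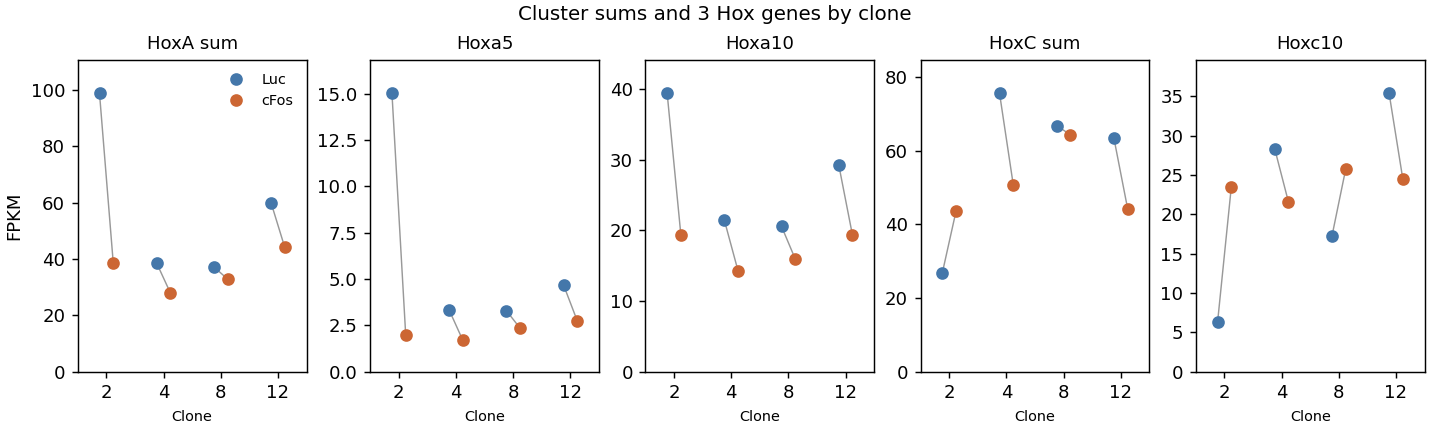
FPKM (vertical, linear from 0) of the HoxA and HoxC totals and of Hoxa5, Hoxa10 and Hoxc10 by clone (horizontal), Luc in blue and cFos in orange, lines joining a clone's libraries. Hoxa5 and Hoxa10 are lower in cFos in each clone, and for HoxC and Hoxc10 clone 2 runs upward from 26.9 to 43.7 and from 6.31 to 23.5.

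The partners and regulators of Hox proteins were compared in the same way. Of 11 tested TALE homeodomain genes, whose products bind DNA together with Hox proteins, none passed. Meis1 was at 3.01 to 6.41 FPKM in Luc and 2.71 to 5.95 in cFos. The smallest adjusted p was that of Tgif1, a repressor of the same family (35.9 ± 9.33 and 56.4 ± 9.59, limma adjusted p = 0.107), which rose with the clone as a block (0.0187), as did 4.51% of all genes. Of 34 Polycomb group genes 1 fell, Rbbp7, a histone-binding subunit (171 ± 16.9 to 119 ± 10.5, limma adjusted p = 0.0442, and 0.0651 with the block). Over all tested genes 2.62% were called lower. Leaving out any library other than Luc 8 ended the call of Rbbp7 (up to 0.135). Ezh2, Eed and Suz12, the core of the Polycomb complex that methylates histone H3, had adjusted p of 0.509, 0.804 and 0.609.

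Of 22 Trithorax, demethylase and Dot1l complex genes 1 rose, Mllt3, a reader of acetylated histones (6.99 ± 1.33 to 12.8 ± 2.41 FPKM, limma adjusted p = 0.0367, and 0.0122 with the block). Over all tested genes 2.92% were called higher. The call of Mllt3 was lost without Luc 2, Luc 4, Luc 8, cFos 2, cFos 4 or cFos 12 (up to 0.113). Kmt2a, the methyltransferase that keeps Hox genes active, did not pass (0.444). Of 11 tested genes of retinoic acid, a signal that switches on 3′ Hox genes, none passed. Aldh1a2, which makes it, was at 94.1, 123, 0.816 and 10.6 FPKM in Luc 2, 4, 8 and 12 and at 0.476, 1.497, 0.0122 and 0.0414 in cFos, lower in each clone. Its limma adjusted p was 0.0840, and 0.0217 with the clone as a block, where 4.28% of all genes were called lower. Dhrs3, a retinal reductase, came next to the threshold (40.9 ± 17.9 and 14.03 ± 7.54, limma adjusted p = 0.0534).

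None of the 17 tested genes that flank the clusters passed between cFos and Luc or among clones, and Evx1 and Evx2, the homeobox genes beyond the 5′ ends of HoxA and HoxD, were at 0 in all 8 libraries. Of 14 limb position factors none passed between cFos and Luc, and Tbx18 (31.6 ± 22.1 and 12.0 ± 2.92 FPKM) did so with the clone as a block (limma adjusted p = 0.0495), against 4.28% of all genes called lower. Tbx15, a factor of skeletal growth, was the 1 of the 14 that differed among clones, against 0.484% of all genes (limma F test, adjusted p = 0.0371), at 32.2 and 19.8 in clone 2, 61.6 and 55.3 in clone 12, 12.8 and 13.02 in clone 4 and 13.1 and 9.97 in clone 8. Its clones 2 and 12 were the high ones, as for Hoxa11. Tbx4 and Tbx5, the hindlimb and forelimb factors, were at most at 0.0367 in any library, and Pitx1, another hindlimb factor, was at 0.432 to 9.499.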

How the data were processed

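Per the labels' protocols, the 8 libraries were prepared from polyA RNA with a TruSeq kit. The submitters' processing notes name the build mm9 and the tools TopHat, Cufflinks and CASAVA 1.8.2. No source used here gives further versions, options or the gene annotation. Per the file headers, the authors deposited FPKM with confidence limits for each RefSeq transcript, and coverage (mean depth per base, an unscaled signal). Cufflinks assigns reads to overlapping transcripts by a model. Each table had 30769 entries; symbols came from RefSeq for 30223 and from GENCODE M21 for 184, and 362 kept their accession. FPKM were summed per symbol, and 3 genes with a status other than OK were left out. Depth is coverage times length, and the files hold no counts, so no counting interval was computed.

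limma 3.58.1 (R 4.3.3; trended eBayes, Benjamini-Hochberg over all tested genes, two-sided, threshold 0.05) was run on log2(FPKM + 0.5), which understates changes of low genes. Python 3.11.15 and pandas 2.3.3 made the tables. The main comparison had no clone term. Libraries of the same number come from the same clone, and their deviations from the arm means correlated at 0.174, 0.593, 0.349 and 0.437 in clones 2, 4, 8 and 12, so the clone was also fitted as a block. Without a clone term, p-values measure the spread between single clones. In the block fit and in the F test of the clones, they rest on the spread left after the terms for virus and clone. The code was tested on simulated data with known changes. Alternatives were pseudocounts of 0.1 and 1, no filter, a minimum of 5 FPKM, median scaling and leaving out each library. Some genes are counted here but not reported singly. List members are named by smallest adjusted p or, like Meis1, Ezh2, Kmt2a and the limb factors, for their known role, after their values were seen. The members and lists were chosen with earlier results of these data known.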

Additional observations from a re-analysis of the deposited data

Results flagged for a closer look

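In each arm the lowest and highest of the 4 clones were compared with their nearest neighbour for the 17 tested Hox genes, 34 groups in all, of which chance alone would mark about 1 in 20. Marked were 2. Hoxa9 was high in Luc 2, at 11.5 FPKM against 6.46 to 7.07 in the other Luc libraries. Hoxc4 was low in Luc 4, at 0.954 FPKM against 1.90 to 2.02. The cFos and Luc difference of Hoxc11 had opposite signs in clones 2 and 12, at 1.29 and -1.30 on the log2 scale. Each is 1 pair of libraries, and the difference between the clones was not tested.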

How the results depend on the processing

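Low levels rest on few aligned bases, such as 92.5 for Hoxa11 in Luc 8 and 835 for Hoxc12 in cFos 12. Each clone and virus has 1 library, which limits every test. The cluster totals with median scaling moved by less than 1 SD. Without Luc 2 (chosen after seeing the data) the Luc mean went from 58.6 to 45.2 FPKM for HoxA and from 58.2 to 68.6 for HoxC. The SD of the Luc values includes Luc 2, so it cannot judge the size of these shifts. Over all genes, 619 differed between cFos and Luc, 981 with the clone as a replicate block and 235 to 589 without 1 library (235 without cFos 2, 291 without cFos 4, 365 without cFos 8 and 378 without Luc 2). Hox calls between cFos and Luc numbered 0, 2 with the replicate block and 0 without any 1 library. The block changed no other Hox call. Calls among clones numbered 54 over all genes, 0 with no filter, 6 at a minimum of 5 FPKM and 0 to 115 without 1 library (0 without Luc 4, Luc 12 or cFos 4). Those of Hox genes numbered 3, 0 with no filter, 0 at 5 FPKM, where Hoxa11 was not tested, and 0 to 2 without 1 library. The cause of these changes was not tested. Of the 17 Hox genes, 9 kept the sign of their cFos difference under all alternatives run. Hoxa4, near 0, turned to 0.018 with a pseudocount of 0.1 and to 0.0310 with median scaling. Without 1 library the log2 difference ran from -0.14 to 0.19 for Hoxa4, -0.72 to 0.22 for Hoxa7, -0.19 to 0.0710 for Hoxa9, -1.12 to 0.33 for Hoxa11, -0.11 to 0.23 for Hoxc6, -0.12 to 0.68 for Hoxc10, -1.13 to 0.0232 for Hoxc11 and -0.65 to 0.0404 for Hoxc13.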
